A study of Mus musculus with 2 samples.

Results

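The genes that encode proteases of the extracellular matrix and their inhibitors were followed in mouse embryonic fibroblasts at the start and on day 3 of drug-induced fat cell formation. They were chosen by the gene symbols of the array annotation. The symbols taken were those of the matrix metalloproteinases (Mmp), the ADAM and ADAMTS proteases, the TIMPs, the HTRA proteases, Serpine2, Serpinf1, Serpinh1, Plat, Plau, Plaur and Reck. This gave 103 probes for 80 genes, out of 29922 gene probes and 16637 named genes. Timp2 was not analysed here.

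All the cells were labelled as Xbp1 knockout. XBP1 is a transcription factor that acts in the unfolded protein response. Cells that carry the gene were not analysed here. Day 0 was the point at which the cells reached confluence. The day 3 cells had been through the 72 h induction, whose mixture held troglitazone and DXM (5 µM each), IBMX at 0.25 mM and insulin at 10 µg/ml. The labels do not say whether the cells were a clone or a mixed population. Each day was 1 single-colour array, so nothing checks the differences against replicates, and no p-values are given. In bulk RNA, fewer cells of a type and less RNA per cell cannot be told apart.

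Matrix metalloproteinases are zinc enzymes made as inactive precursors, and between them they cut collagens, gelatin, proteoglycans and other matrix proteins. Most ADAM proteases sit in the membrane, where the active ones release the outer parts of other membrane proteins, while ADAMTS proteases are secreted and cut proteoglycans or trim procollagens. TIMPs block the catalytic site of these enzymes. The urokinase system produces plasmin, which degrades fibrin and activates several metalloproteinase precursors. Fat cell precursors remodel their fibrillar matrix as they differentiate, and these enzymes take part in that remodelling.

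Signals are fluorescence intensities made comparable between the arrays by quantile normalization, and differences are log2 signal on day 3 minus log2 signal on day 0. The detection threshold was a signal of 122, which is the gene probes' median, and a gene had to pass it on at least 1 day. Where a signal lay under 122 on 1 day or was saturated on the brighter day, the fold is a lower bound. Repeated control spots gave the technical SD of a difference. At log2 signals between 6 and 8 its median was 0.42 and its pooled value 0.61. Between 8 and 10 these were 0.44 and 0.78, between 10 and 12 they were 0.39 and 0.57, and above 12 they were 0.38 and 1.18. They leave out the variation between cultures.

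The promoters of a run of neighbouring MMP genes on chromosome 9 are shown first, because these genes ranged from undetected to saturated on the arrays and many of them share an AP-1 motif near the start. In the gene table of GRCm38.p6 the run was Mmp13, Mmp12, Mmp1b, Mmp3, Mmp1a, Mmp10, Mmp8, Mmp27, Mmp20 and Mmp7. The letters TGAGTCA, the consensus of an AP-1 site, were searched on both strands of RefSeq windows reaching from 250 bases before to 50 bases after each gene start. They were found for 7 of the 9 genes of the run that are members, all of which had a window. Among all 32851 windows, 5.2% held these letters. The 100 bases before the start are printed for 5 genes of the run and for Plaur, the urokinase receptor gene on chromosome 7. All lie on the plus strand of GRCm38.p6, and capitals mark the AP-1 letters or their reverse complement.
Mmp13 (chr9:7272414-7272513): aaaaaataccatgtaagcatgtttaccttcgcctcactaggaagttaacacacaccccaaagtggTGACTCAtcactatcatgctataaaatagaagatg
Mmp12 (chr9:7347274-7347373): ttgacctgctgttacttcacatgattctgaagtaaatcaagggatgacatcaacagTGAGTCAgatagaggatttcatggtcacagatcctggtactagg
Mmp3 (chr9:7445722-7445821): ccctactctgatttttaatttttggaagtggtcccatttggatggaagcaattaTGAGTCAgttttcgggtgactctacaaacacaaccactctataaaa
Mmp10 (chr9:7502242-7502341): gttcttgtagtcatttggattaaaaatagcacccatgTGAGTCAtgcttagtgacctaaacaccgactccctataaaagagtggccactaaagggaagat
Mmp7 (chr9:7691990-7692089): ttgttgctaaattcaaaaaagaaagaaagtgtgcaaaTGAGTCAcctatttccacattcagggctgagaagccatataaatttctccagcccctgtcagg
Plaur (chr7:24462383-24462482): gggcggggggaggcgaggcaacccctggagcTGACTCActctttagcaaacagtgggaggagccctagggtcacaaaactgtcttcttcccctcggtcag

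The first base of the match lay 35 bases before the start in Mmp13, 44 in Mmp12, 46 in Mmp3, 63 in both Mmp10 and Mmp7, and 69 in Plaur. Mmp7 and Mmp12 each had another window without the letters. Of the 80 genes, 46 had a window, and 11 of their 51 windows (21.6%) held the AP-1 letters. The genes with a match included the 7 of the chromosome 9 run, which are neighbours of 1 family and so not independent. Outside the run they were Adam19, Adam1b, Adam29 and Plaur. Counted by gene, a match was present for 3 of the 7 members with a window that were 2-fold lower on day 3, namely Mmp7, Mmp10 and Plaur. It was present for 0 of 6 that were 2-fold higher, for 4 of 17 that differed less and for 4 of 16 that were not detected. The cAMP response element TGACGTCA was found in 0 of the 51 windows and in 1.79% of all windows. A match describes the sequence, and no binding was measured.

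Of the 80 genes, 53 were detected, 42 of them on both days. Among the 53, 14 (26.4%) were at least 2-fold higher on day 3, against 12.8% of all 10656 detected genes, and 10 (18.9%) were at least 2-fold lower, against 10.3%. The median difference of the members was -0.02, and that of all detected genes was 0.03. Differences smaller than 1.5-fold made up 37.7% of the members and 54.9% of all detected genes. The members thus differed in both directions around a middle close to that of the array.

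A gene detected on 1 day and not the other had to differ, so the counts were also taken in other ways. Among the 42 members above the threshold on both days, 8 were 2-fold higher (10.1% of all such genes) and 8 were 2-fold lower (8.43% of all). With signals below the threshold raised to its value, 11 of the 53 were higher, against a background of 10.2%, and 8 were lower, against 8.51%. With no detection filter, 20 of the 80 genes were higher and 13 lower, where the backgrounds were 13.4% and 10.8%. Of the 29 detected members short of 2-fold, 24 differed by no more than the pooled repeat-spot SD. Just inside the 2-fold limit lay Adamts7, Reck and Adamts1, and just outside it Mmp3, Adamts10 and Timp1.

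**Figure D1:**
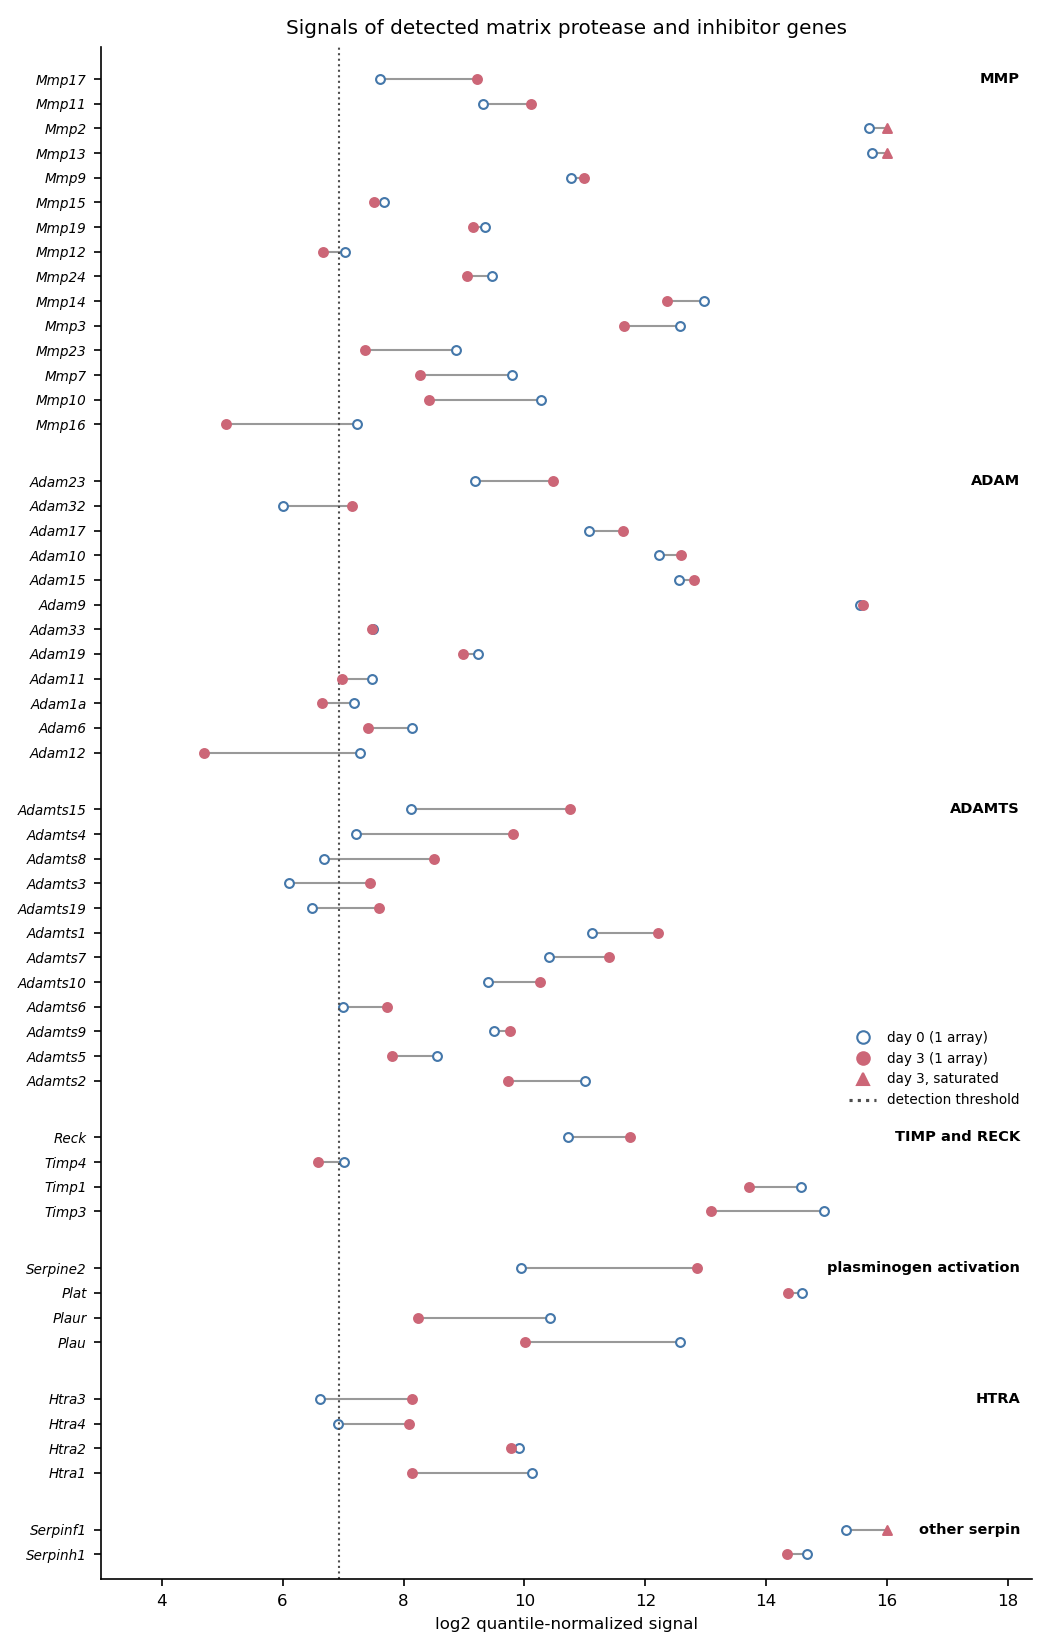
Log2 quantile-normalized signal (horizontal axis) of the 53 detected genes on day 0 (open) and day 3 (filled, triangles where saturated), 1 array a day. Of the 12 ADAMTS genes shown 10 lie to the right on day 3, of the 15 MMP genes 10 lie to the left, and Plau and Plaur lie to the left where Serpine2 lies to the right.

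Among the genes of plasminogen activation, the inhibitor gene Serpine2 was higher on day 3 and the urokinase genes were lower. Serpine2 encodes protease nexin-1, an inhibitor of urokinase, thrombin and plasmin, and its signal was 981.5 on day 0 and 7457 on day 3. That is 7.60-fold higher (2.93), the 49th largest difference toward day 3 among the 10656 detected genes with quantile normalization. Plau, which encodes urokinase, read 6072 on day 0 and 1035 on day 3, 5.87-fold lower (-2.55). Plaur, whose product holds urokinase at the cell surface, read 1373 and 300.5, 4.57-fold lower (-2.19). The inhibitor was thus higher where the enzyme and its receptor were lower. Plat, which encodes the tissue-type activator, read 24786 and 21163, a difference of -0.23 that lies within the repeat-spot SD.

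A list of 20 further genes around plasmin held 14 detected ones, of which 3 were 2-fold higher and 1 was 2-fold lower, where 12.8% and 10.3% of all detected genes were. The median of the list was -0.04, against 0.03 for all detected genes. The serpin gene Serpina3n read 1769.5 and 8223 (2.22). Thbd, which encodes the thrombin receptor thrombomodulin, read 728 and 2946.5 (2.02). Lrp1, whose product takes up complexes of proteases and inhibitors, gave 1.54 and 0.45 by its probes. F2r, the gene of a thrombin-activated receptor, was the lower one (-1.08). Plasminogen itself (Plg) was not detected (27 and 13.5).

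More ADAMTS genes differed toward day 3 than toward day 0. Of 16 genes, 12 were detected, with a median of 1.05. Of the 12, 7 (58.3%) were 2-fold higher and 1 (8.3%) was 2-fold lower, against 12.8% and 10.3% of all detected genes. With dim signals raised to the threshold, 5 were higher and 1 lower, against 10.2% and 8.51% of all. The family median was above 0 in each of the 12 processing settings. As read it ranged from 0.56 under median scaling over all gene probes to 1.65 with no normalization, and relative to the median of all genes from 0.77 to 1.05.

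Several ADAMTS proteases cut large proteoglycans such as aggrecan and versican. Among these, Adamts15 read 278 on day 0 and 1723 on day 3, 6.20-fold higher (2.63). Adamts4 read 148 and 899, 6.07-fold higher (2.60). Adamts8, the chromosomal neighbour of Adamts15, read 103, under the threshold, and 361.5, at least 2.96-fold higher, while its other probe was not detected (67 and 39). These genes were dim or undetected on day 0 and above the threshold on day 3.

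Adamts1, which cuts the same substrates, read 2220.5 and 4743 on its brighter probe (2.14-fold higher), but 707.5 and 635.5 on the dimmer (-0.15). Its direction therefore depends on the probe. Adamts5, its chromosomal neighbour, differed by -0.75 (374.5 and 223), and another detected probe read 189.5 and 54, below the threshold on day 3 and so at least 1.55-fold lower. Adamts9 read 726.5 and 872.5, a difference of 0.26 within the repeat-spot SD. The proteoglycan-cutting members thus lay on both sides of 0.

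The procollagen N-propeptidases, which remove the amino-terminal extension of fibrillar procollagens, were also divided. Adamts2 was lower on day 3 by both of its probes, which read 2043.5 and 848.5 (-1.27), and 1165 and 524 (-1.15). Adamts3 read 68.5, under the threshold, and 174.5, at least 1.43-fold higher. Adamts7, whose product cuts cartilage oligomeric matrix protein, read 1352 and 2705 and so lay almost exactly at the 2-fold limit. Adamts10 (676.5 and 1227, 1.81-fold) and Adamts6 (128.5 and 212.5, 1.65-fold) were higher by less. Adamts19 read 89.5 and 194, at least 1.59-fold higher. Adamts12, Adamts16, Adamts18 and Adamts20 stayed below the threshold, with signals between 10 and 52.5.

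More of the detected MMP genes lay below 0 than above it. Of 22 genes, 15 were detected, 5 of them above 0 and 10 below, and the same split over all genes is not given here. Mmp12, Mmp15, Mmp19 and Mmp24 among the lower ones changed sign in at least 1 setting, as did Mmp2, Mmp9 and Mmp13 among the higher ones. Of the 15, 1 (6.7%) was 2-fold higher and 4 (26.7%) were 2-fold lower, against 12.8% and 10.3% of all detected genes. With dim signals raised to the threshold, 1 was higher and 3 were lower, against 10.2% and 8.51% of all. The family median was -0.37. It was below 0 in every setting except with no normalization, where it was 0.47 as read and -0.20 relative to the median of all genes.

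The brightest MMP probes reached the upper limit of the scanner. Mmp13, the collagenase gene, had deposited intensities of 46757 on day 0 and 65472 on day 3, where it was saturated, and was at least 1.19-fold higher after normalization. Mmp2, a gelatinase gene, had 45654 and 65469, likewise saturated on day 3, and was at least 1.22-fold higher. The sign of both turned with the scaling: under median scaling over all gene probes the difference was -0.60 for Mmp13 and -0.57 for Mmp2. Both genes were strong on both days, and the size of a change was not measured.

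Of the other detected genes of the chromosome 9 run, Mmp10, Mmp7 and Mmp3 were lower on day 3. Mmp10, the gene of stromelysin-2, read 1235 on day 0 and 344 on day 3, 3.59-fold lower (-1.84). Mmp7, the gene of matrilysin, read 890.5 and 310, 2.87-fold lower (-1.52). Mmp3, the gene of stromelysin-1, read 6075.5 and 3207, 1.89-fold lower (-0.92), which lies within the pooled SD of 1.18. Mmp12, the macrophage elastase gene, lay near the threshold (131.5 and 102), and its difference of -0.37 turned to 0.18 when the arrays were scaled to the median of the probes above threshold on each day, and to 0.73 with no normalization. Mmp1a, Mmp1b, Mmp8 and Mmp20 stayed below it, the highest of them Mmp8 with 98 on day 0 and 15 on day 3. The AP-1 letters printed above stand before genes on both sides of the 2-fold limit. They also stand before the undetected Mmp1a and Mmp1b, whose sequences are not printed.

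**Figure D2:**
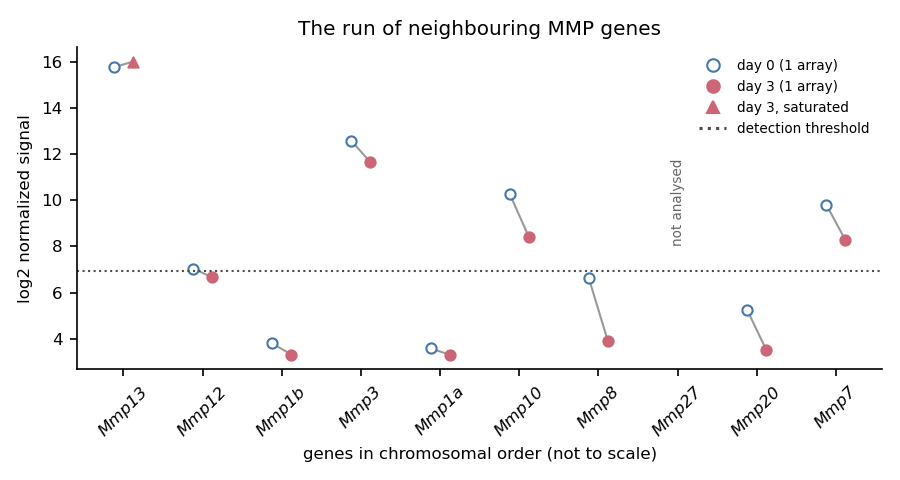
Log2 normalized signal (vertical axis) of the neighbouring MMP genes of chromosome 9 in chromosomal order, day 0 open and day 3 filled (triangle where saturated), 1 array a day. Mmp3, Mmp10 and Mmp7 are lower on day 3, Mmp13 is near the upper limit on both days, and Mmp12 lies near the detection threshold of 122.

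Among the membrane-bound metalloproteinases, Mmp17 was 2-fold higher. Its product is held by a lipid anchor, and it read 195.5 on day 0 and 595 on day 3, 3.04-fold higher (1.61). Mmp14, which encodes the membrane-type enzyme that activates the Mmp2 precursor, read 8051 and 5278.5 (-0.61), a difference within the pooled SD of 1.18. Mmp16 was above the threshold on day 0 (149.5) and below it on day 3 (33.5), at least 1.23-fold lower. Mmp23 read 465 and 164.5, 2.83-fold lower (-1.50). Mmp15 (205.5 and 182.5) and Mmp24 (706 and 530) differed by less than 1.5-fold, and Mmp25 was not detected.

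The remaining secreted enzymes stayed under 2-fold. Mmp11, the gene of stromelysin-3, read 638.5 and 1102.5 (0.79). Mmp9, the other gelatinase gene, read 1747 and 2035.5, which differ by 0.22, less than the repeat-spot SD of 0.39. The probes of Mmp19 gave -0.20 and 0.20. Mmp21 and Mmp28 were not detected.

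Macrophages also make Mmp9 and Mmp12. Of 8 macrophage and leukocyte markers, 5 were detected, with 3 of them 2-fold higher on day 3 and 1 2-fold lower. Among all detected genes 12.8% and 10.3% were. With dim signals raised to the threshold, 2 markers were higher and 1 was lower. Ptprc (10 on both days) and Adgre1 (10 on day 0) lay at or near the floor of 10 on both days. Fcgr3 read 81, under the threshold, and 164, at least 1.34-fold higher, and Cd68 read 198.5 and 268. Cd14 (16036 and 39698.5) and Itgam (703.5 and 3556) were higher, and Csf1r was lower (269.5 and 51.5). Lyz2, not detected, read 66 and 13.5. The summed signal of the list was 17374.5 on day 0 and 43772 on day 3, most of it from the Cd14 probe alone, and its part in the Mmp9 and Mmp12 values was not tested.

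The TIMPs and RECK differed in direction. Timp3 encodes the TIMP that is bound to the matrix and acts also on ADAM17 and on ADAMTS enzymes. Its brightest probe read 31879.5 on day 0 and 8749.5 on day 3, 3.64-fold lower (-1.87), and its other probe read 5856.5 and 516.5, 11.3-fold lower (-3.50). Both probes thus gave the same direction with unequal size. Timp1 read 24368.5 and 13518, 1.80-fold lower (-0.85) and within the pooled SD of 1.18. Timp4 lay near the threshold (129.5 and 96.5). Reck, which encodes a membrane-anchored inhibitor of metalloproteinases, read 1691 and 3441.5, 2.04-fold higher (1.03).

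Of 28 ADAM genes, 12 were detected. By the brightest probe 8 of these (66.7%) differed by less than 1.5-fold, against 54.9% of all detected genes, and Adam10 and Adam11 among them had another detected probe that differed by more. By the same measure 2 (16.7%) were 2-fold higher and 1 (8.3%) was 2-fold lower, beside 12.8% and 10.3% of all detected genes. With dim signals raised to the threshold, 1 was higher and 0 were lower. The median of the 12 was 0.01. The sheddase gene Adam17 read 2141 and 3184 (0.57). Adam10, whose product sheds Notch and cadherins, read 4775 and 6150 on its brighter probe (0.37) and 1940 and 1025.5 on the dimmer (-0.92). Adam9 was among the brightest members, with 48134.5 and 49771.5, a difference of 0.05. Adam15 (6059 and 7128) and Adam19 (598.5 and 505.5) also differed by less than 1.5-fold.

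Adam23, which encodes a member without protease activity, was 2-fold higher by both probes. They read 581.5 and 1416 (1.28), and 524 and 1377.5 (1.39). Adam12, the gene of meltrin alpha, read 156 on day 0 and 26 on day 3, at least 1.28-fold lower. Adam32 read 64.5, under the threshold, and 141, at least 1.16-fold higher. Adam11 differed by -0.50 on its brighter probe (179 and 127), while the dimmer read 92, under the threshold, and 208, at least 1.70-fold higher, so its direction depends on the probe. Adam33 (180 and 177.5), Adam1a (145 and 100) and Adam6 (282 and 169.5) were dim. The other 16 ADAM genes, Adam8 among them (27 and 60.5), stayed below the threshold with signals between 10 and 121.

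The HTRA serine proteases lay on both sides of 0. Htra1, whose secreted product cuts matrix proteins, read 1116.5 and 283.5, 3.94-fold lower on day 3 (-1.98). Htra3, the gene of a related secreted protease, was below the threshold on day 0 by both probes (98 and 63.5). On day 3 these read 281 and 314, at least 2.30-fold and at least 2.57-fold higher. Htra4 read 120.5 and 271, at least 2.22-fold higher. Htra2, the mitochondrial member, read 967.5 and 876 (-0.14).

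Serpinf1 and Serpinh1 belong to the serpin family but do not inhibit proteases. Serpinf1 encodes pigment epithelium-derived factor, a secreted protein. Its deposited intensities were 34833 and 65468, saturated on day 3, and it was at least 1.61-fold higher after normalization, although median scaling over all gene probes gave -0.18. Serpinh1, the gene of the collagen chaperone of the endoplasmic reticulum, read 26294 and 20747.5, a difference of -0.34 within the repeat-spot SD.

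Probes of the same gene give a partial check on these values, since they share the RNA but not the probe sequence. Of the 21 members with several probes, 9 had at least 2 detected ones. The differences had the same sign in 5 genes, Adam23, Adamts2, Adamts5, Htra3 and Timp3. They had opposite signs in 4 genes, Adam10, Adam11, Adamts1 and Mmp19.

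**Figure D3:**
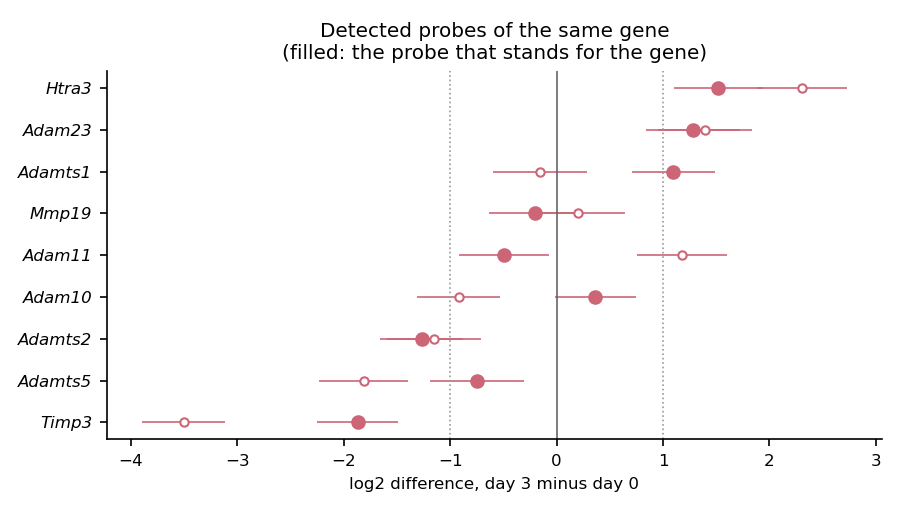
Log2 difference, day 3 minus day 0 (horizontal axis), of each detected probe for the 9 genes with at least 2 of them. Bars give the median repeat-spot SD of a difference, which is smaller than the pooled value. The probes of Timp3 lie at -3.50 and -1.87, and those of Adam10, Adam11, Adamts1 and Mmp19 on both sides of 0.

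Of 26 other extracellular and activating proteases with a probe, 18 were detected, and 1 was 2-fold higher and 3 were 2-fold lower (median 0.00), beside the same 12.8% and 10.3% of all genes. The higher gene was Pappa, which encodes a protease of insulin-like growth factor binding proteins (228 and 616.5, 1.44, and 2.15 by its other probe). The lower genes Pcolce2, Fap and Pcsk6 were all below the threshold on day 3, and 0 of the 3 were 2-fold lower at the bound. Furin, the gene of a convertase that activates metalloproteinase precursors, differed by 0.68.

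Of 24 other inhibitors and ADAM regulators with a probe, 15 were detected, 4 of them 2-fold higher and 1 2-fold lower (median 0.12), again beside 12.8% and 10.3%. Adamtsl3, an ADAMTS-like gene whose product lacks the protease domain, read 901 and 132.5 (-2.77). Adamtsl4, of the same family, was higher (1.13). Papln, the gene of the related papilin, read 90.5 and 290, at least 2.38-fold higher. Mrc2, which encodes a receptor that takes up collagen fragments, gave 1.57 and 0.33 by its probes. Tspan33, the gene of a tetraspanin that partners ADAM10, read 177.5 and 374 (1.08).

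All 9 fibroblast markers were detected on both days, with Lum 2-fold higher and S100a4 (-1.56) and Col1a1 (-1.06) 2-fold lower on day 3. Of 6 adipocyte markers 1 was detected, Lpl, which was saturated on day 3 and at least 6.99-fold higher. Of the skeletal muscle markers 0 of 5 were detected, of the endothelial 3 of 6 and of the epithelial 2 of 5. Of these, endothelial Pecam1 (189.5 and 568.5) and epithelial Krt14 (150.5 and 387.5) were 2-fold higher, and endothelial Kdr read 168 and 17.5, below the threshold on day 3. The part of these markers in the results was not tested. Before normalization the gene probes had a median intensity of 78 on day 0, against 166 on day 3, while the empty spots had a median of 0 on both days.

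That gap makes the split between higher and lower members depend on the scaling. With quantile normalization higher genes made up 58.3% of the 2-fold members (14 higher and 10 lower). Among all detected genes 1359 were higher and 1093 lower. The member share was 40.0% under median scaling over all gene probes (10 higher and 15 lower), where the median of all detected genes was -0.49. All genes there gave 829 higher and 2586 lower. With no normalization the member share was 80.8% (21 higher and 5 lower), where the median of all detected genes was 0.67. All genes then gave 3940 higher and 315 lower, so the split of the whole array shifted in the same directions. With the median of all genes removed, the counts were 12 and 12 under median scaling, and 15 and 10 with no normalization. Relative to that median, 10 of the 14 higher genes stayed 2-fold higher under each of the 5 scalings in which they were detected, the exceptions being Adamts1, Adamts7, Adamts19 and Reck. Among the 10, Adam32 was not detected under cyclic loess. All 10 lower genes stayed 2-fold lower in the same sense, but Adam12 and Mmp16 were not detected with no normalization. As read, without removing that median, 9 higher and 7 lower genes stayed past 2-fold. The share of all genes that stayed past 2-fold in this way is not given here.

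**Figure D4:**
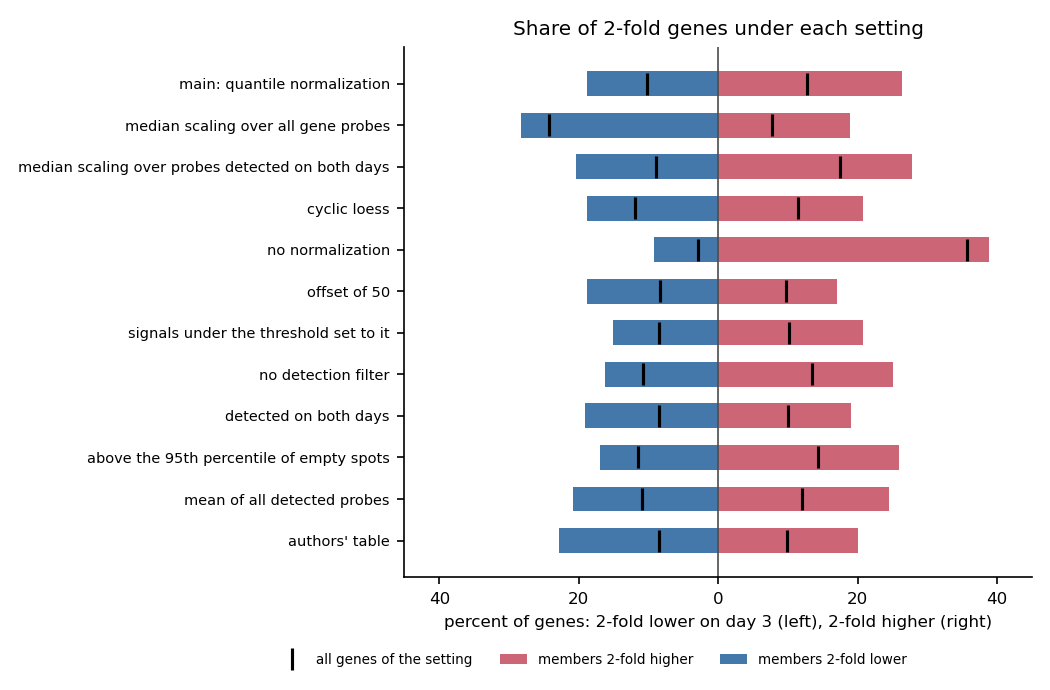
Percent of the members that were at least 2-fold lower (left) or higher (right) on day 3 with quantile normalization and under the 11 alternatives (bars), with black marks for the percent among all genes of that setting. The bars reach past the marks on both sides in each setting, and the split between the sides shifts with the scaling.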

How the data were processed

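Total RNA was amplified and labelled with Cy5 by the array company, per the labels' protocols. The authors deposited 1 linear intensity for each of 39200 spots per array. The 7402 empty spots had a median of 0 on both days. Sources used here do not give the scanner, the background method, or the normalization of the authors' deposited table of 11482 probes, which served as an alternative.

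The intensities of the 29922 gene probes were quantile normalized (limma 3.58.1, run in R 4.3.3). A floor of 10 was then applied and log2 taken. Intensities of 65000 or more counted as saturated. Of several probes, the brightest by mean log2 signal represented the gene. Quantile normalization and the 2-fold step were also run on simulated arrays. In those arrays few genes changed and the gap between the arrays was constant, so that run does not bear on the choice of scaling. With 1 sample a day there was no test, and the number of arrays limits the precision. All detected members are named, and from the related lists the 2-fold genes. Plg, Furin, Adam8, Mmp8 and the markers given with values were picked after their values were seen. The members and lists were chosen with earlier results of these data known. Alternatives covered the scaling (5 scalings, counting quantile normalization), the filter, an offset, the probe rule, the authors' table and a 1.5-fold limit. Promoter windows are RefSeq's (GRCm38.p6).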

Additional observations from a re-analysis of the deposited data

How the results depend on the processing

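The count of members at least 2-fold higher was 14 with quantile normalization. It was 9 with an offset of 50, 8 among the 42 members detected on both days and 7 in the authors' table, which held 35 members. The count of members 2-fold lower was 10, and 5 with no normalization. The median difference of the members was -0.02, and 0.72 with no normalization, a setting in which all genes had a median of 0.67. Under the other alternatives the counts stayed within 1.5 times these and the median within 0.42, the repeat-spot SD. None of the 24 members called 2-fold changed sign under any alternative that gave it a value, while 23 other members did in at least 1, with differences of up to 0.75 in size under quantile normalization. No paired analysis was possible because each day has 1 sample, and no sample could be left out. Of the 80 genes, 27 never exceeded the threshold, so their differences have no measured size.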

Other observations

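The ADAM genes known mainly from testis, sperm and epididymis were grouped after their values were seen. The 21 probes of these 16 genes had a median deposited intensity of 13 on day 0 and 87 on day 3, and 20 of the 21 were higher on day 3. Adam3 read 19 and 165, and Adam29 read 9 and 151. Among the 20 of these probes with a day 0 intensity under 100, the median was 11 on day 0 and 79.5 on day 3. Among all 15994 gene probes under that limit, the medians were 12 and 32, and 13486 were higher on day 3. After quantile normalization the medians were 19.8 and 51.5 for the ADAM probes and 21.5 and 22 for all such probes. For the empty spots the 95th percentile was 7, and on day 3 it was 9. Of the 16 genes, Adam1a, Adam6 and Adam32 passed the detection threshold, and Adam1a and Adam6 were lower on day 3 after normalization.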
